A study of Homo sapiens with 4 samples.

Results

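The genes described are 43 splicing factor genes: 13 SR proteins, 4 SR-related proteins, 6 kinases of SR proteins, 17 hnRNPs and 3 factors that recognise the 3′ splice site. They were taken from a fixed list of symbols, each matched to the Ensembl identifier of that symbol in the deposited gene-level files, and all 43 were found among 41084 identifiers. They were measured in a human leukaemia line, OCI-AML3, derived from acute myeloid leukaemia. There were 4 poly(A)-selected libraries, 2 of genotype Plex CEBPB and 2 of genotype Plex Control. The word Plex is not explained in the sources used here, which also do not say whether the libraries of a group came from separate cultures, so the p-values measure the spread between these libraries, which may be technical. The series is about C/EBPβ, a myeloid transcription factor, in leukaemia cells that resist BCL2 and MDM2 inhibitors.

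SR proteins bind exonic sequences through RNA recognition motifs and recruit the spliceosome through arginine-serine repeats, whose phosphorylation by SRPK and CLK kinases sets where they reside and how they act. The hnRNPs coat nascent RNA and often oppose them. Many of these genes limit their own output by splicing a poison exon into their RNA, an exon that brings an early stop codon and sends the transcript to nonsense-mediated decay. SRSF2, U2AF1 and SF3B1 are recurrently mutated in myeloid neoplasms.

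Library totals of the deposited counts were 21950575 and 18151225 in the CEBPB libraries and 19882347 and 21598592 in the Control libraries. CEBPB itself (ENSG00000172216.6) stood at 535.6 and 339.3 TPM in the CEBPB libraries, against 4.72 and 4.47 TPM in the Control libraries (TPM is an abundance per transcript length that adds up equally in all libraries). The groups also differed in WT1, which encodes a zinc finger transcription factor: it was at 7.71 and 7.56 TPM in the CEBPB libraries, against 31498 and 30075 TPM in the Control libraries, where it took 3.15% and 3.01% of all TPM. CEBPB and WT1 differ between the same groups, so which of them goes with a difference below cannot be told apart. Of the 9 listed myeloid markers 7 averaged at least 1 TPM, and their summed level was 8253 to 8599 TPM in the CEBPB libraries and 2084 to 2178 TPM in the Control libraries. LYZ, the lysozyme gene, carried this sum, at 7686 and 7921 TPM in CEBPB, against 1413 and 1308 TPM in Control. The other 8 markers summed to 566.7 and 678.1 TPM in CEBPB, against 764.8 and 776.6 TPM in Control. Of these, SPI1, CSF3R, TYROBP and the barely detected MPO were lower in both CEBPB libraries than in both Control libraries. PTPRC went the other way, at 243.8 and 288.8 TPM in CEBPB, against 198.2 and 206.5 TPM in Control. CD33, FCER1G and ANPEP overlapped between groups. The 5 T cell, 5 erythroid and 5 epithelial markers summed to at most 1.06 TPM in each library, with 2, 4 and 2 of them at 0 in all libraries. The 5 B cell markers summed to 2.52 to 2.97 TPM in the CEBPB libraries and 7.16 to 8.09 TPM in the Control libraries. The 5 fibroblast and endothelial markers summed to 35.8 to 37.0 TPM in the CEBPB libraries and 78.3 to 87.0 TPM in the Control libraries. In each of these 2 lists 1 of the 5 genes averaged 1 TPM or more. PECAM1 carried the fibroblast and endothelial sum, at 33.9 and 36.1 TPM in CEBPB, against 86.6 and 77.6 TPM in Control, and CDH5 was at 0 in all libraries. The part of other cell types in the results was not tested.

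In GENCODE v29, matched by identifier without its version on GRCh38, all 43 genes are protein-coding, 36 have a transcript annotated for nonsense-mediated decay and 34 have one with a retained intron. A cassette exon that overlaps no exon of a coding transcript was found in the decay transcripts of 19 genes, and in 17 of these such an exon holds the annotated stop. The sequences below, from the GENCODE v29 transcripts, show how soon reading stops in such exons of genes described here. Each runs 5′ to 3′ from the first base of the exon to the stop codon, which is in capitals.

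SRSF3-203, chr6:36599821-36599854, plus strand: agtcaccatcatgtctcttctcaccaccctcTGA
SRSF6-202, chr20:43459153-43459304, plus strand: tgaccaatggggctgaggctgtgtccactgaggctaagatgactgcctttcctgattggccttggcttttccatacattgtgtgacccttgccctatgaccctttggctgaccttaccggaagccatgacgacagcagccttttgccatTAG
SRSF7-204, chr2:38749319-38749346, minus strand: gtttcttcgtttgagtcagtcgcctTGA
HNRNPLL-201, chr2:38577956-38578002, minus strand: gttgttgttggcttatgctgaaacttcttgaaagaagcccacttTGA
RBM39-206, chr20:35740526-35740597, minus strand: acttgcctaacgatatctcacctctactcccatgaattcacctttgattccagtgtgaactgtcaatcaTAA

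The SRSF3 exon is 456 bases long and its stop is reached after 34 bases, the SRSF7 exon is 449 bases long with the stop after 28, and the SRSF6 exon is 268 bases long with the stop after 152. The HNRNPLL exon has 83 bases with the stop after 47, and the RBM39 exon has 73 bases with the stop after 72. RBM39 has 7 cassette exons that overlap no exon of a coding transcript, counted whether or not they hold the stop. The deposited values are sums over a gene's transcripts, so they do not count these exons. The length values described further down are the only measure here that moves with the mix of transcripts.

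In the CEBPB libraries the kinase CLK1, the hnRNP HNRNPLL, the SR-related RBM39 and the branch point factor SF3B1 were higher, and the abundant hnRNP HNRNPA1, SRSF7, SRSF1, HNRNPA3 and U2AF1 were lower. Each was tested with edgeR's quasi-likelihood test on the deposited counts, scaled by trimmed mean of M values (TMM), with Benjamini-Hochberg adjusted p under 0.05. All 43 genes passed the filter on low counts, with at least 234 recovered reads in each library. With this test 6 of the 43 genes were higher in CEBPB, 17 were lower and 20 did not pass. Over all 13698 identifiers tested, 48.5% passed, 23.7% higher and 24.7% lower. Without Control replicate 1 the test called 4 of the 43 genes higher and 7 lower, and without Control replicate 2 it called 5 and 8. Over all identifiers the share called was also smaller in these fits, 32.7% and 33.2%. The median log2 fold change was -0.15 over the 43 genes and 0 over all identifiers.

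The count of genes called lower depended on how the libraries were scaled. TMM sets the bulk of the genes level between groups, whereas scaling by library totals alone left the median of all identifiers at 0.18 on the log2 scale and shifted every gene up by about that much. With library totals 10 of the 43 genes were higher and 6 lower, against 32.3% higher and 17.2% lower over all identifiers. The 6 genes called higher with TMM were all called with totals too, and so were 6 of the 17 called lower: HNRNPA1, SRSF7, HNRNPA3, U2AF1, SRSF1 and SRSF6. The other 11 lower calls were made with TMM alone, 4 genes (SRSF4, CLK2, CLK3 and CLK4) were called higher with totals alone, and 11 genes that did not pass with TMM changed sign. Without WT1 the TMM counts were again 6 higher and 17 lower, and library totals without WT1 gave 7 lower, an alternative chosen after seeing the data. The fold changes below are relative to the bulk of genes unless totals are named. In bulk RNA, fewer cells with a transcript and less of it per cell cannot be told apart.

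**Figure D1:**
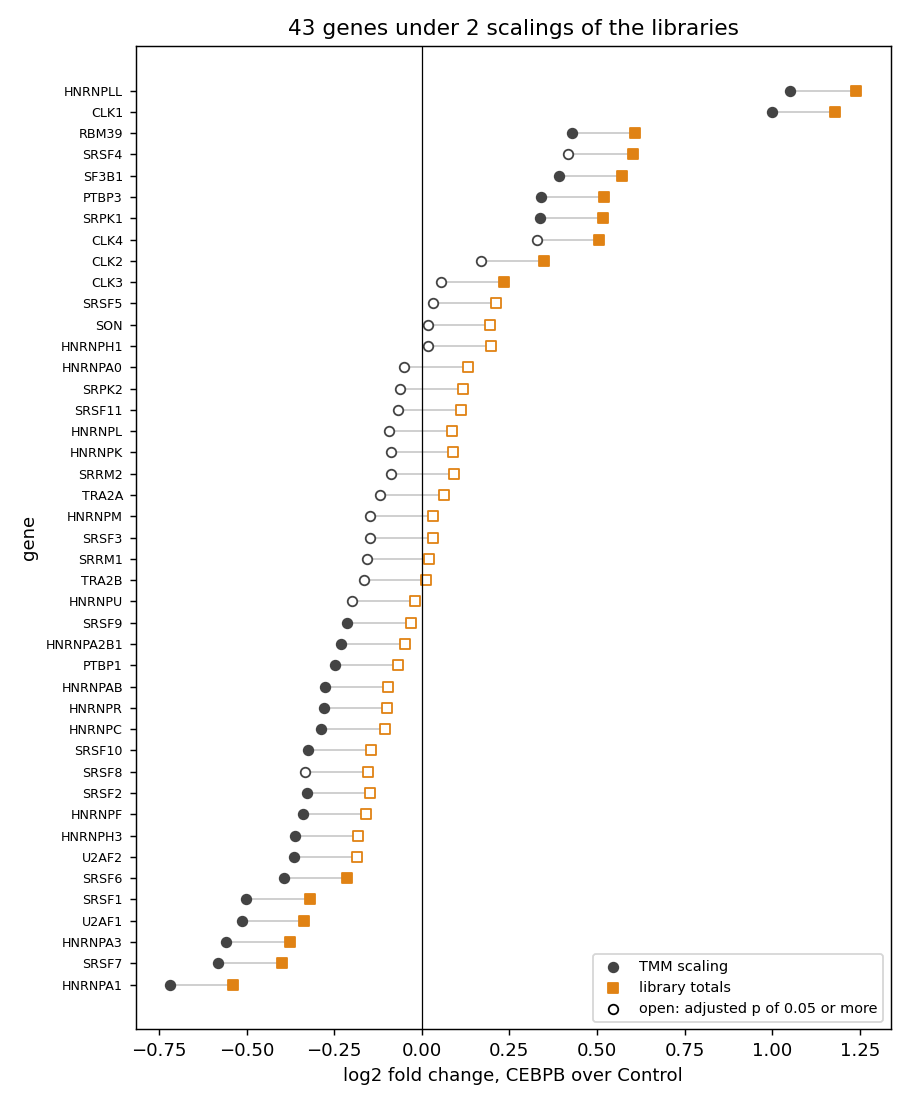
Log2 fold change (x axis, CEBPB over Control) of the 43 genes (y axis, ordered by the TMM value) with TMM scaling (dark circles) and with library totals (orange squares); filled symbols passed an adjusted p of 0.05. With totals 10 genes passed as higher and 6 as lower, against 6 and 17 with TMM, and HNRNPLL and CLK1 lie farthest from 0 under both.

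Among the kinases, which phosphorylate the arginine-serine repeats, 2 of 6 rose and 0 fell with TMM (all identifiers 23.7% and 24.7%). With library totals 5 of 6 were higher and 0 lower (all identifiers 32.3% and 17.2%). CLK1, a nuclear kinase that releases SR proteins from speckles (ENSG00000013441.17, chromosome 2, 200853009 to 200864744, minus strand), was at 44.9 and 41.8 TPM in the CEBPB libraries, against 17.5 and 20.8 TPM in the Control libraries. Both CEBPB libraries lay above both Control libraries, and the rise was 1.00 on the log2 scale (SE 0.10, adjusted p = 0.0012, edgeR). It passed under every alternative run, also when tested against a change of 1.5-fold (adjusted p = 0.0115, edgeR). SRPK1, the mainly cytoplasmic SR kinase, was at 168.1 and 147.4 TPM in CEBPB, against 100.7 and 119.7 TPM in Control. Its groups did not overlap and it rose by 0.34 on the log2 scale (SE 0.10, adjusted p = 0.0398, edgeR), a call that was lost without CEBPB replicate 1 (adjusted p = 0.137), without CEBPB replicate 2 (0.0629) and without Control replicate 1 (0.215, edgeR).

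The relatives of CLK1 lay on the same side without passing under TMM. CLK4 was at 14.8 and 16.8 TPM in CEBPB, against 10.6 and 11.6 TPM in Control (log2 0.33, adjusted p = 0.0901, edgeR). CLK2 was at 24.6 and 22.9 TPM in CEBPB, against 18.5 and 18.9 TPM in Control (log2 0.17, adjusted p = 0.140, edgeR). CLK3 was at 54.5 and 51.4 TPM in CEBPB, against 45.6 and 44.3 TPM in Control (log2 0.06, adjusted p = 0.513, edgeR). In TPM all 3 were higher in both CEBPB libraries than in both Control libraries. Library totals share the scaling of TPM and left the median of all identifiers at 0.18. With these totals the 3 passed at 0.506, 0.348 and 0.236 on the log2 scale (adjusted p = 0.0196, 0.0267 and 0.0478, edgeR). SRPK2 stood at -0.06 with TMM (adjusted p = 0.539, edgeR) and at 0.118 with library totals. Shares within a library do not depend on scaling: the 6 kinases made up 2.77% and 2.79% of the summed TPM of the 43 genes in the CEBPB libraries, against 1.77% and 1.98% in the Control libraries. Of the kinases' own TPM, CLK1 took 13.4% and 13.7% in CEBPB, against 8.05% and 8.65% in Control. SRPK1 held the largest part, 50.3% and 48.2% in CEBPB, against 46.4% and 49.8% in Control.

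Of the 13 SR proteins 0 were higher and 6 lower with TMM, where all identifiers had 23.7% higher and 24.7% lower. All calls were thus in 1 direction, and 46.2% were called, against 48.5% of all identifiers in either direction. With library totals 1 was higher, SRSF4, and 3 were lower, SRSF1, SRSF6 and SRSF7 (all identifiers 32.3% and 17.2%). The level summed over all 13 was 2588 and 2385 TPM in the CEBPB libraries, against 2581 and 2553 TPM in the Control libraries. SRSF7 (ENSG00000115875.19, chromosome 2, 38743599 to 38751494, minus strand), an SR protein with a zinc knuckle that also serves mRNA export, was at 160.9 and 140.8 TPM in CEBPB, against 199.0 and 199.5 TPM in Control. Both CEBPB libraries lay below both Control libraries (log2 -0.58, SE 0.07, adjusted p = 0.00178, edgeR). SRSF1 (ENSG00000136450.13, chromosome 17, 58003360 to 58007346, minus strand), the founding SR protein and an oncogene when overproduced, was at 296.6 and 244.9 TPM in CEBPB, against 339.6 and 336.4 TPM in Control. It fell by 0.50 on the log2 scale (SE 0.08, adjusted p = 0.00551, edgeR), with no overlap between groups and CEBPB replicate 2 the lowest of the 4 libraries. SRSF6 (ENSG00000124193.16, chromosome 20, 43457928 to 43464247, plus strand) was at 151.0 and 150.7 TPM in CEBPB, against 181.1 and 169.0 TPM in Control. Its groups did not overlap (log2 -0.39, SE 0.07, adjusted p = 0.00757, edgeR), and without Control replicate 1 it did not pass (adjusted p = 0.0661, edgeR).

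SRSF2, SRSF9 and SRSF10 passed as lower with TMM and not with library totals, at log2 fold changes of -0.33, -0.21 and -0.32. SRSF2, which reads both G-rich and C-rich exonic enhancers, was at 186.7 and 180.4 TPM in CEBPB, against 203.9 and 203.4 TPM in Control (adjusted p = 0.00742 with TMM and 0.104 with library totals, edgeR). It missed the threshold without Control replicate 1 or Control replicate 2 (adjusted p = 0.0696 and 0.0641, edgeR), and SRSF10 missed it without Control replicate 2 (0.103, edgeR). SRSF9 missed it without CEBPB replicate 2, Control replicate 1 or Control replicate 2 (adjusted p = 0.0901, 0.158 and 0.239, edgeR). SRSF9 overlapped between groups in TPM, at 237.3 and 214.9 in CEBPB and 227.1 and 235.4 in Control. The most abundant SR protein, SRSF3, was at 497.8 and 490.5 TPM in CEBPB, against 485.7 and 481.7 TPM in Control (log2 -0.15 with TMM, adjusted p = 0.0931, and 0.031 with library totals, edgeR). SRSF4 varied within the CEBPB group, at 125.2 and 84.7 TPM, against 66.2 and 72.1 TPM in Control (log2 0.42, SE 0.16, adjusted p = 0.0864, edgeR). SRSF5 stood at 0.03 on the log2 scale, with a 95% interval from -0.14 to 0.20. TRA2A and TRA2B, SR-like activators of exon inclusion, stood at -0.12 and -0.17 (adjusted p = 0.206 and 0.0685, edgeR), and both were above 0 with library totals.

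Of the 4 SR-related genes only RBM39 was called, as higher, with TMM and with library totals. Of the 3 factors of the 3′ splice site, SF3B1 was higher and U2AF1 lower under both scalings, and U2AF2 was lower with TMM. RBM39 (ENSG00000131051.24, chromosome 20, 35701347 to 35742312, minus strand), a U2AF-related splicing factor that is degraded by aryl sulfonamide drugs, was at 341.5 and 337.1 TPM in CEBPB, against 226.7 and 218.5 TPM in Control. The groups lay far apart relative to their spread, and the rise was 1.35-fold (log2 0.43, SE 0.06, adjusted p = 0.00377, edgeR). SF3B1 (ENSG00000115524.17, chromosome 2, 197389784 to 197435091, minus strand), the subunit of the U2 particle that clamps the branch point, was at 244.3 and 235.2 TPM in CEBPB, against 162.3 and 160.6 TPM in Control (log2 0.39, SE 0.06, adjusted p = 0.0041, edgeR). Both CEBPB libraries were again above both Control libraries.

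U2AF1 and U2AF2, which encode the dimer that reads the 3′ splice site ahead of SF3B1, were lower. U2AF1 (ENSG00000160201.12, chromosome 21, 43092956 to 43107587, minus strand), the subunit that contacts the terminal AG of the intron, was at 186.2 and 187.5 TPM in CEBPB, against 235.6 and 236.1 TPM in Control (log2 -0.51, SE 0.06, adjusted p = 0.00226, edgeR). U2AF2, which binds the polypyrimidine tract, was at 122.7 and 116.1 TPM in CEBPB, against 137.1 and 134.7 TPM in Control (log2 -0.37, SE 0.06, adjusted p = 0.00539, edgeR), and did not pass with library totals (-0.185, adjusted p = 0.0726, edgeR) or without Control replicate 1 (adjusted p = 0.055, edgeR). The scaffold genes of nuclear speckles did not pass: SON stood at 0.02, SRRM2 at -0.09 and SRRM1 at -0.16 on the log2 scale (adjusted p = 0.860, 0.350 and 0.323, edgeR), and SRRM1 and SRRM2 were above 0 with library totals.

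Of the 17 hnRNPs 2 were higher and 9 lower with TMM, where all identifiers had 23.7% higher and 24.7% lower. With library totals 2 were higher and 2 lower, HNRNPA1 and HNRNPA3, where all identifiers had 32.3% higher and 17.2% lower. HNRNPA1 (ENSG00000135486.19, chromosome 12, 54280193 to 54287088, plus strand), a splicing repressor that opposes SRSF1, had the highest level of the 43 genes, at 1518 and 1476 TPM in CEBPB, against 2172 and 2183 TPM in Control. Both CEBPB libraries lay far below both Control libraries, and the fold was 0.607 (log2 -0.72, SE 0.05, adjusted p = 5.3e-04, edgeR; -0.54 with library totals). It passed under every alternative, the test against a 1.5-fold change included (adjusted p = 0.0424, edgeR). As a share of the hnRNPs' summed TPM, HNRNPA1 took 19.3% and 21.0% in the CEBPB libraries, against 26.0% and 26.5% in the Control libraries. Its 74 pseudogene identifiers, which can take its reads, summed to 6.02 and 7.40 TPM in CEBPB and to 6.01 and 5.37 TPM in Control.

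HNRNPA3 (ENSG00000170144.22, chromosome 2, 177212563 to 177223958, plus strand), a relative of HNRNPA1, was at 439.8 and 349.6 TPM in CEBPB, against 524.1 and 500.5 TPM in Control (log2 -0.56, SE 0.10, adjusted p = 0.00667, edgeR). CEBPB replicate 2 was the lowest library, as for SRSF1. HNRNPH3 was at 271.2 and 249.5 TPM in CEBPB, against 305.2 and 285.5 TPM in Control. HNRNPF was at 246.9 and 225.9 TPM in CEBPB, against 266.9 and 261.0 TPM in Control. Neither overlapped between groups. HNRNPH3 and HNRNPF, members of the family that binds G-runs, fell with TMM by 0.36 and 0.34 on the log2 scale (adjusted p = 0.0079 and 0.00717, edgeR) and did not pass with library totals (adjusted p = 0.0971 and 0.121, edgeR), nor without Control replicate 1 (adjusted p = 0.0793 and 0.0733, edgeR). HNRNPF also missed the threshold without Control replicate 2 (adjusted p = 0.0526, edgeR).

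The next most abundant hnRNPs moved less. HNRNPA2B1 was at 1302 and 1100.4 TPM in CEBPB, against 1251 and 1234 TPM in Control (log2 -0.23, adjusted p = 0.0483, edgeR), and HNRNPC, which binds uridine tracts, was at 968.9 and 818.0 TPM in CEBPB, against 972.0 and 950.4 TPM in Control (log2 -0.29, adjusted p = 0.0259, edgeR). The TPM of HNRNPA2B1 and HNRNPC overlapped between groups, and neither passed with library totals (-0.0486 and -0.105) or without Control replicate 1 (adjusted p = 0.216 and 0.146) or Control replicate 2 (0.178 and 0.108, edgeR). HNRNPA2B1 also missed the threshold without CEBPB replicate 2 (adjusted p = 0.0577, edgeR). HNRNPAB, HNRNPR and PTBP1, the polypyrimidine tract repressor, passed with TMM and not with library totals, at -0.28, -0.28 and -0.25. HNRNPR missed the threshold in each fit that left out 1 library (adjusted p from 0.0509 to 0.235), HNRNPAB in all but the fit without CEBPB replicate 1 (0.0503 to 0.166) and PTBP1 in all but the fit without CEBPB replicate 2 (0.0645 to 0.188, edgeR). The TPM of HNRNPAB and HNRNPR overlapped between groups. HNRNPH1, HNRNPK, HNRNPL, HNRNPM, HNRNPU and HNRNPA0 did not pass, at log2 fold changes from -0.20 to 0.02.

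HNRNPLL and PTBP3, both close relatives of a more abundant repressor, were higher. HNRNPLL (ENSG00000143889.16, chromosome 2, 38561978 to 38603586, minus strand), known in lymphocytes for switching CD45 splicing, was at 77.0 and 53.0 TPM in CEBPB, against 27.6 and 27.7 TPM in Control. The CEBPB libraries differed from each other but both lay above both Control libraries (2.07-fold, log2 1.05, SE 0.16, adjusted p = 0.00414, edgeR). It passed under every alternative, with an adjusted p of 0.0342 against a 1.5-fold change. Its paralogue HNRNPL was at 151.7 and 147.5 TPM in CEBPB, against 139.1 and 143.0 TPM in Control (log2 -0.09, adjusted p = 0.256, edgeR), so HNRNPLL made up 33.7% and 26.4% of the pair in CEBPB, against 16.5% and 16.3% in Control. PTBP3 (ENSG00000119314.16, chromosome 9, 112217716 to 112333667, minus strand) was at 77.9 and 69.8 TPM in CEBPB, against 49.6 and 53.6 TPM in Control (log2 0.34, SE 0.07, adjusted p = 0.0145, edgeR). That call was lost without CEBPB replicate 1, Control replicate 1 or Control replicate 2 (adjusted p = 0.0529, 0.112 and 0.0516, edgeR). Summed over the 17 hnRNPs the level was 7870 and 7043 TPM in the CEBPB libraries, against 8340.0 and 8245 TPM in the Control libraries.

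**Figure D2:**
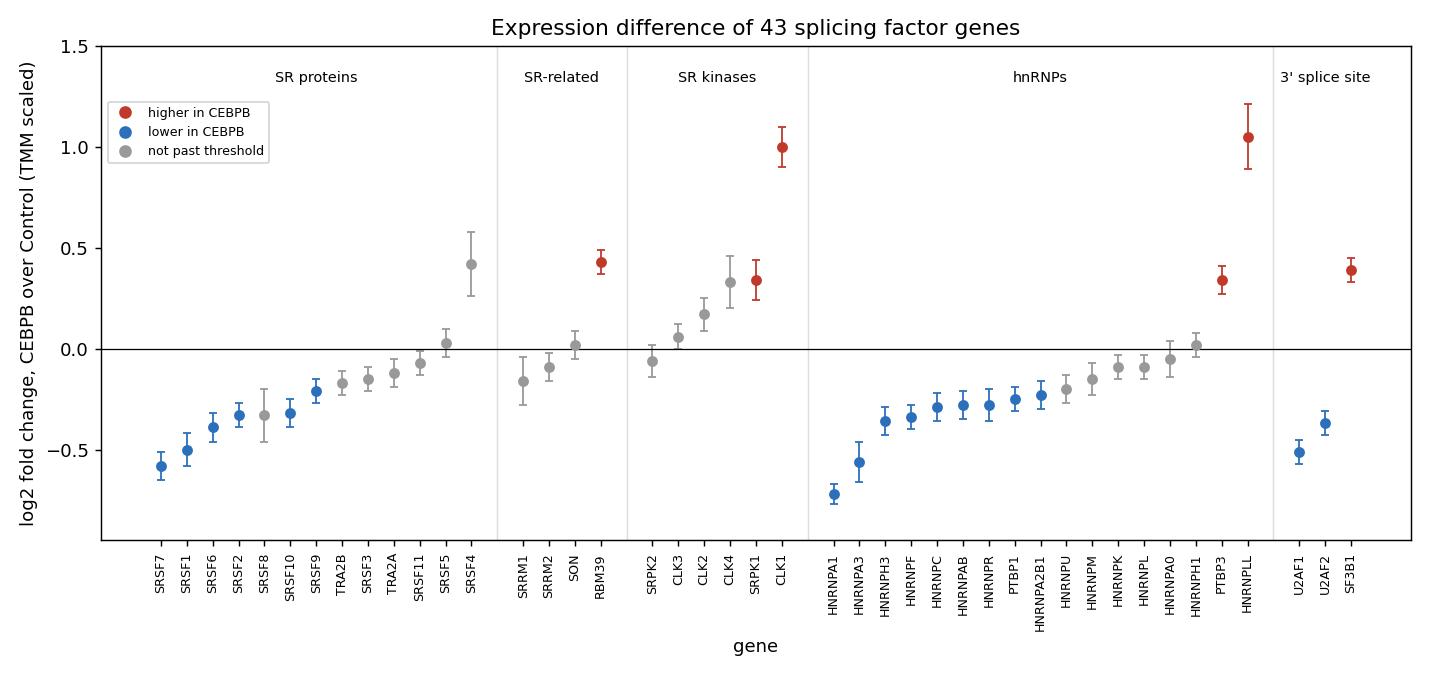
Log2 fold change of each gene (y axis, CEBPB over Control, TMM scaled, bars are 1 SE) by class along the x axis. The SR proteins and hnRNPs, 13 and 17 of the 43 genes, hold 15 of the 17 genes called lower (blue). The genes called higher (red) are spread over 4 classes. Over all identifiers 23.7% were higher and 24.7% lower. With library totals 3 SR proteins and 2 hnRNPs were lower, where 17.2% of all identifiers were.

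**Figure D3:**
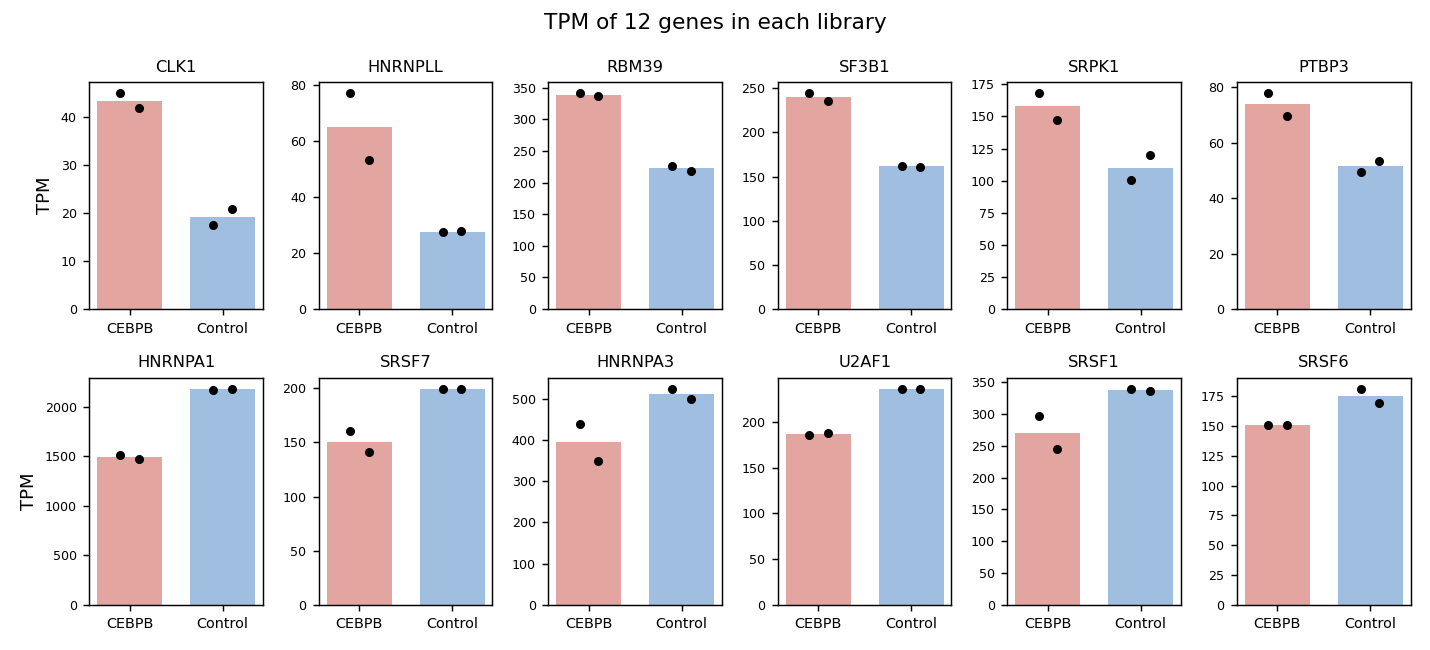
TPM (y axis) in each library (points) and the group mean (bars, n = 2 libraries each) for the 12 genes called with both scalings, CEBPB left of Control. In each panel the groups do not overlap, which the choice of called genes favours and which adds no support. The 2 CEBPB points lie farthest apart, in proportion to their level, in HNRNPLL, at 77.0 and 53.0 TPM.

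The gene-level length of each gene was compared as a measure of its transcript mix. It is an effective length in bases, in files of this kind a mean over the gene's transcripts weighted by their abundance. It was longer in general in the CEBPB libraries: the median over the identifiers tested was 2007 and 1980.0 bases in CEBPB, against 1927 and 1944 bases in Control. This library-wide difference was removed by centring, and the log2 lengths were then tested with limma over all 13698 identifiers. No identifier passed, so 0% is the background, and 0 of the 43 genes passed. With 2 libraries a group, the lack of calls does not show that lengths were alike. At an unadjusted p under 0.05 there were 7 of the 43 genes and 1456 of all identifiers (10.6%). With each alternative tried, including lengths without centring and a replicate block, the count past the threshold was also 0, and the lowest adjusted p of the 43 genes ranged from 0.264 to 1 (limma).

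The largest length ratio of the 43 was that of SRSF6, which did not pass. Its length was 1959 and 1895 bases in CEBPB, against 1604 and 1653 bases in Control (log2 ratio 0.20, SE 0.02, unadjusted p = 0.00181, adjusted p = 0.296, limma). The groups did not overlap in these lengths, which are not centred. The same held for SRSF3, whose log2 ratio after centring was 0.01. GENCODE v29 lists 2 transcripts of SRSF6, a coding one of 4325 bases and a decay transcript of 1680 bases, the one with the exon shown above. An effective length runs shorter than the annotated length, so the deposited values and these lengths are not on the same scale. The authors' annotation release is not given in the sources used here, and no transcript is inferred from the shift.

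SF3B1 went the other way, at 2598 and 2591 bases in CEBPB, against 2759 and 2825 bases in Control (log2 ratio -0.15, SE 0.02, adjusted p = 0.296, limma). SRSF11, an SR protein whose level did not pass (log2 fold change -0.07, adjusted p = 0.411, edgeR), was at 1930.0 and 1935 bases in CEBPB, against 1714 and 1716 bases in Control (log2 ratio 0.13, SE 0.02, adjusted p = 0.319, limma). Replicates of SRSF11 differed by a few bases. These lengths are not centred, so the gap between its groups includes the library-wide difference. Of its 16 annotated transcripts 4 are coding, of 1408 to 3784 bases, and 2 are decay transcripts, of 760 and 796 bases. No transcript is inferred from the shift here either. SRSF8 overlapped, at 1800 and 2055 bases in CEBPB and 1815 and 1598 bases in Control (log2 ratio 0.13, SE 0.12).

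The other genes with an unadjusted p under 0.05 were SRSF2 and SRRM2, shorter in both CEBPB libraries, and HNRNPH3 and SRSF10, longer in both, with log2 ratios of -0.10, -0.08, 0.09 and 0.09 (adjusted p from 0.413 to 0.468, limma). SRSF2 was at 1686 and 1600.0 bases in CEBPB, against 1716 and 1714 bases in Control. SRSF10 was at 1480.0 and 1492 bases in CEBPB, against 1376 and 1335 bases in Control. CLK1, whose level rose most among the kinases, was at 1071 and 1143 bases in CEBPB and 1103 and 1046 bases in Control, with overlapping groups and a log2 length ratio of 0. SRSF3 was at 1019 and 993 bases in CEBPB, against 963 and 976 bases in Control (log2 ratio 0.01, adjusted p = 0.876, limma).

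**Figure D4:**
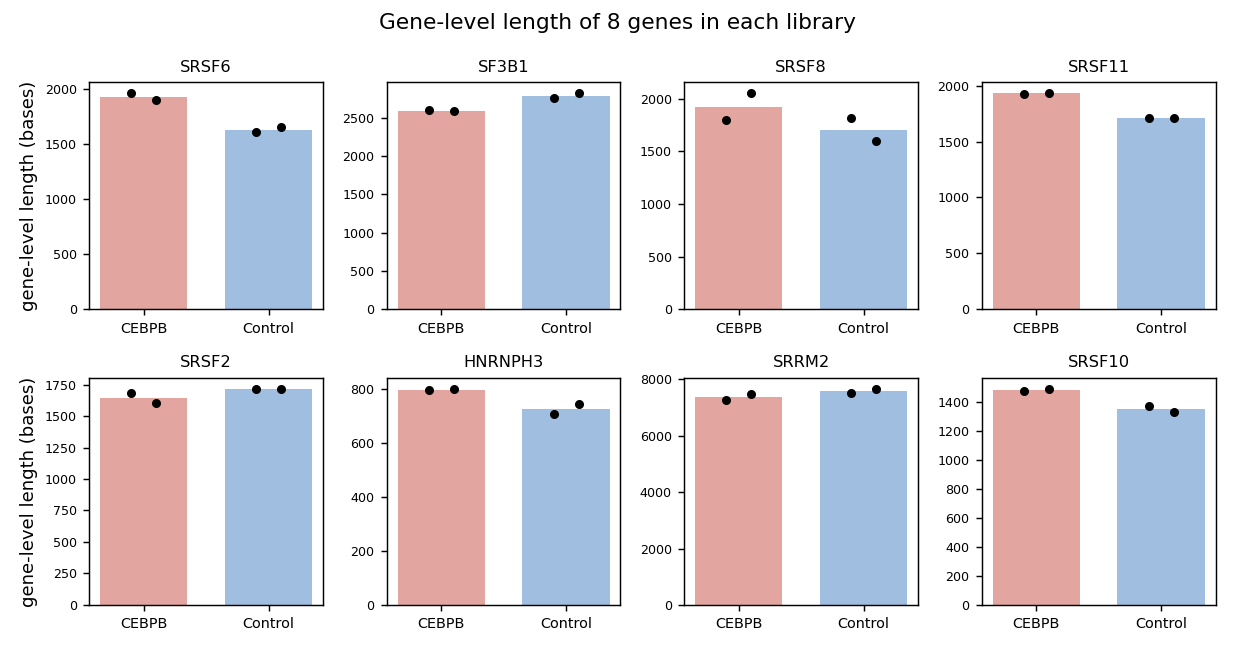
Gene-level effective length in bases (y axis) in each library (points) with the group mean (bars, n = 2 libraries each), CEBPB left of Control, for the 4 genes with the largest length ratios and the 4 others with an unadjusted p under 0.05. The lengths shown are not centred. SRSF6 and SRSF11 are longer and SF3B1 shorter in both CEBPB libraries, SRSF8 overlaps between groups, and none passed the adjusted threshold.

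Genes that work beside the 43 were read from 3 further lists. Of 53 core spliceosome genes, the particles and helicases that carry out splicing, 3 were higher and 27 lower with TMM (median log2 -0.26), where all identifiers had 23.7% higher and 24.7% lower. With library totals 10 were higher and 17 lower (all identifiers 32.3% and 17.2%). Without Control replicate 1 there were 2 higher and 17 lower (all identifiers 16.0% and 16.7%), and without CEBPB replicate 2 there were 5 and 21 (19.7% and 21.4%). LSM7, a subunit of the ring that caps U6 RNA, was at 82.0 and 79.2 TPM in CEBPB, against 151.8 and 144.6 TPM in Control (log2 -1.06, adjusted p = 3.1e-04, edgeR). PRPF19, a ubiquitin ligase of the active spliceosome, fell by 0.78 and SNRPA1, a U2 protein, fell by 0.61 on the log2 scale. PRPF3, of the U4/U6 particle, rose to 103.1 and 88.7 TPM in CEBPB, against 38.8 and 42.0 TPM in Control (log2 1.07, adjusted p = 5.6e-04, edgeR).

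Of 16 genes of nonsense-mediated decay and the exon junction complex 4 were higher and 3 lower with TMM, so 43.8% were called, near the 48.5% of all identifiers. With library totals 6 were higher and 0 lower (all identifiers 32.3% and 17.2%). When either Control library was left out, fewer of these 16 genes were called, and fewer of all identifiers too. SMG8 rose by 0.60, SMG6, the endonuclease of the pathway, by 0.65 and CASC3 by 0.35 on the log2 scale, while UPF3B fell by 0.40 (adjusted p from 0.00228 to 0.012, edgeR). Of 56 other splicing regulators, 54 could be tested, and 13 were higher and 12 lower with TMM, so 46.3% were called, near the 48.5% of all identifiers. With library totals 22 were higher and 2 lower (all identifiers 32.3% and 17.2%). As said above, leaving out either Control library lowered the calls over all identifiers, and it lowered those of this list too. TNPO3, the importin that carries phosphorylated SR proteins into the nucleus, was at 81 and 71.7 TPM in CEBPB, against 40.8 and 42.4 TPM in Control (log2 0.70, adjusted p = 0.00121, edgeR). The kinase DYRK1A rose by 0.90 on the log2 scale (adjusted p = 0.00248, edgeR). The arginine methyltransferase PRMT1 fell by 0.57 and CELF2 by 0.65 (adjusted p = 0.00144 and 0.0028, edgeR).

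The promoter windows of 39 of the 43 genes were matched in RefSeq (250 bases before to 50 after each start, GRCh38.p14). HNRNPA1, RBM39, SRSF2 and TRA2A were not matched. All windows, set beside these, were not limited to expressed or protein-coding genes, so the shares below compare unlike sets. The E-box CACGTG, the same on both strands and the core site of MYC and its partners, was in 6 of them (15.4%), against 7.26% of all 35116 windows. The genes with it were called higher (SF3B1), lower (HNRNPA3 and HNRNPH3) and not called (CLK2, CLK4 and HNRNPM). A C/EBP-like site, TTGCNNAA on either strand, was in 2 of the 39 (5.13%), HNRNPA2B1 and SRRM2, against 10.5% of all windows. The windows of SF3B1 and HNRNPA3, which moved in opposite directions, are shown with the E-box in capitals; a match is only a run of letters in this window.

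SF3B1, chr2:197434979-197435278, minus strand: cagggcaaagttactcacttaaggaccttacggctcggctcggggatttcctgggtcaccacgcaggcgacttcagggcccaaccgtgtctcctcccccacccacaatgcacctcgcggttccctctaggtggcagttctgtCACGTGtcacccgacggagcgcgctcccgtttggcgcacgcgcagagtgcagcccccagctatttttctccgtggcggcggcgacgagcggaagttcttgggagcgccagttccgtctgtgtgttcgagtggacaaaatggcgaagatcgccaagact
HNRNPA3, chr2:177212544-177212843, plus strand: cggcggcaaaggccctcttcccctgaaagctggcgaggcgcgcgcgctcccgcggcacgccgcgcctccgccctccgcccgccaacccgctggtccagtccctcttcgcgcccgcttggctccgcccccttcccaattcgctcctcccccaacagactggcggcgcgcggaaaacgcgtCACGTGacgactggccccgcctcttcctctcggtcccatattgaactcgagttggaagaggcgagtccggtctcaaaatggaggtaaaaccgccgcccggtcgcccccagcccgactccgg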

How the data were processed

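OCI-AML3 RNA was read in 2 Plex CEBPB and 2 Plex Control libraries; per the labels' protocols, a stranded Illumina kit with poly(A) selection was used. Per the submitters' processing notes, Trimmomatic 0.39, kallisto 0.46.2 and GRCh38 were used; the annotation release, strand setting and step to genes are not given in the sources used here. The authors deposited TPM, expected counts (estimated counts) and, as another unit, effective lengths per gene. Each deposited count equals the TPM times 1 constant per library (relative spread at most 3.9e-16), so the counts carry no transcript length; reads were recovered as TPM times length, rescaled to the library total.

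The members and gene lists were chosen with earlier results of these data known. Of 41084 identifiers, 35690 matched a symbol. Counts were rounded, filtered with filterByExpr (13698 left), then scaled by TMM, whose factors were 0.938 to 1.09. The expression test was edgeR 4.0.16, run under R 4.3.3. The biological coefficient of variation was 11.3%. Log2 lengths, centred on each library's median, were tested with limma 3.58.1 with a trend on mean log2 TPM and the robust option. Adjusted p-values are Benjamini-Hochberg over all identifiers tested. Named with all values were the 14 genes with the largest change past the threshold, the 4 largest length ratios, the 3 highest levels and, per further list, the 4 smallest adjusted p with both directions. SRPK1, the CLK genes and others were added after their values were seen. Both fits were run on simulated data with set changes. For lengths the check asked only that fitted shifts follow the set ones, not that they pass the threshold. Alternatives were other scalings, filters and tests (limma-voom, DESeq2 1.42.0, and limma on log2 TPM after adding 1 or 0.1), a replicate block, recovered reads and each library left out, which takes the spread of a single remaining library to equal that of the opposite group. On the strand opposite 22 of the 43 genes another gene overlaps, and with the strand setting not given its reads may be included. Python 3.11.15 and matplotlib 3.10.9 made the figures.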

Additional observations from a re-analysis of the deposited data

How the results depend on the processing

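Of the 23 called genes, CLK1, HNRNPLL and HNRNPA1 passed under every alternative, and SRSF1, SRSF7, HNRNPA3, U2AF1, SF3B1 and RBM39 under all but the test against a 1.5-fold change. That test called 2 of the 43 genes higher and 1 lower, 1 and 3 core spliceosome genes, 0 and 0 decay genes, 2 and 0 other regulators, and 1186 and 1188 identifiers. With library totals 10 of the 43 genes were higher and 6 lower, and 10 and 17 of the core spliceosome. The decay list had 0 lower and other regulators 22 and 2, against 32.3% higher and 17.2% lower over all identifiers. With log2 TPM plus 1 or plus 0.1 the counts were 12 and 6, 11 and 17, 0 lower, and 22 and 2. All identifiers then had 32.8% higher and 17.9% lower (plus 1), and 32.6% and 17.6% (plus 0.1). Library totals without WT1, added after the data were seen, gave 7 of the 43 lower and 6 and 17 for the core spliceosome. They gave 0 decay genes lower and 2 other regulators lower, where all identifiers had 29.4% higher and 18.8% lower. Recovered reads gave 6 decay genes lower, where 30.7% of all identifiers were lower. When 1 library was left out, fewer of all identifiers were called in each fit. Leaving out 1 library gave 4 to 6 of the 43 higher and 7 to 17 lower (7 without Control replicate 1, 8 without Control replicate 2), 2 to 5 and 17 to 25 core spliceosome genes, 1 to 4 and 1 to 4 decay genes, 5 to 12 and 2 to 12 other regulators. Genes that did not pass changed sign with library totals (SRSF3 0.031, SRSF11 0.112, TRA2A 0.0626, TRA2B 0.0134, SRRM1 0.0217, SRRM2 0.0927, SRPK2 0.118, HNRNPA0 0.131, HNRNPK 0.0903, HNRNPL 0.0855 and HNRNPM 0.0326), with log2 TPM plus 1 (SRSF3 0.0307, SRSF11 0.109, TRA2A 0.0585, TRA2B 0.0126, SRRM1 0.0234, SRRM2 0.0911, SRPK2 0.112, HNRNPA0 0.121, HNRNPK 0.0897, HNRNPL 0.0845 and HNRNPM 0.027), with log2 TPM plus 0.1 (SRSF3 0.0307, SRSF11 0.11, TRA2A 0.0594, TRA2B 0.0127, SRRM1 0.0237, SRRM2 0.0917, SRPK2 0.116, HNRNPA0 0.124, HNRNPK 0.0899, HNRNPL 0.085 and HNRNPM 0.0271) and with library totals without WT1 (SRSF11 0.0669, TRA2A 0.0175, SRRM2 0.0476, SRPK2 0.0729, HNRNPA0 0.0859, HNRNPK 0.0451 and HNRNPL 0.0404), all log2 fold changes. With recovered reads SRSF11 stood at 0.052 and HNRNPH1 at -0.0215. Over the libraries left out, HNRNPH1 ranged from -0.0114 to 0.0469, HNRNPA0 from -0.14 to 0.0409, SON from -0.018 to 0.0626 and SRSF5 from -0.0277 to 0.0908. The cause of these changes was not tested, apart from the shift in scale that each scaling sets. Replicate numbers are shared between groups, but same-numbered libraries did not deviate together (correlation -0.028, and -0.052 for lengths); with the replicate block 6 of the 43 genes were higher and 14 lower, with 3174 and 3308 identifiers, and no length passed. With 2 libraries a group, small differences stay within the error, and the gene-level length does not tell which transcripts changed.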
